A study of Mus musculus with 8 samples.

Results

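Transcripts of 9 genes that mark dividing cells and newborn neurons were followed in hippocampal poly(A) RNA from mice that overexpressed miR-708-5p and from control mice. The genes, chosen by name for their roles with earlier results of these data known, were Eomes, Neurog2, Mki67, Top2a, Neurod1, Dcx, Sox11, Igfbpl1 and Draxin, 9 of 40659 genes in the count table. All 9 were among the 17252 genes that passed the filter on low counts, and each had at least 1 count in every library. The mice were male C57BL/6JRj animals, aged 12 to 13 postnatal weeks by their labels. They had received a recombinant adeno-associated virus in the dorsal and ventral hippocampus, by the study's methods 4 weeks before RNA was taken. The study's results place surgery at 7 to 8 weeks, which would make the mice younger than the labels give. Its methods state the age at surgery in months only. In the hp708 group (n = 4) the virus carried a hairpin that yields miR-708-5p, in the hpCTL group (n = 4) a control hairpin. Both hairpins were expressed from the human synapsin promoter, which is active in neurons, while the RNA came from whole hippocampus with all its cell types. A lower level of a marker in such tissue may come from fewer cells of a type or from less RNA per cell, and these cannot be told apart here.

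The libraries held 22606824 to 28462428 counts. The sequenced libraries do not measure the mature miRNA, and Mir708 was at 0 counts in all 8 libraries (limit of detection, 3 counts per library), so that overexpression could not be checked in these data. The library labelled hp708 replicate 1 came from animal 1602, a number that the source data of a qPCR experiment list under hpCTL, and the counts for the 9 genes and for each list are given with and without it. In the count profile, the chi-square per degree of freedom of hpCTL replicate 1 against the other hpCTL libraries was 35 to 46.2, beside 10 to 16.3 among those 3. Among the hp708 libraries it was 17.5 to 41.1, with replicate 2 at 30.8 to 41.1 against the others.

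New granule cells are added to the dentate gyrus of the adult rodent hippocampus from radial glia-like stem cells in the subgranular zone. These stem cells give rise to dividing intermediate progenitors, which express Eomes (Tbr2) and Neurog2, transcription factors of neuronal commitment. The progenitors become neuroblasts and immature neurons that express Neurod1, a factor needed for granule cell differentiation, and Dcx, a microtubule-associated protein of migrating and growing neurons. Sox11 is a transcription factor of the same immature stage, and Igfbpl1 encodes a secreted protein related to the insulin-like growth factor binding proteins that marks early neuroblasts. Draxin is a secreted axon guidance protein. Mki67 (the Ki-67 antigen) and Top2a (DNA topoisomerase II alpha) are made by cells in the division cycle, whichever type they are. All of these cells are a small part of the adult hippocampus.

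A miRNA pairs with a target mRNA mainly through its seed, bases 2 to 8. The mature sequence is shown because its seed defines the sites searched for among the genes, with the seed in capitals (5′ to 3′, RefSeq).
mmu-miR-708-5p: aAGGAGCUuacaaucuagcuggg
The letters searched for on the transcribed strand were AGCTCCT, complementary to bases 2 to 8 (7mer-m8), AGCTCCTA, the same with a final A (8mer), and GCTCCTA, complementary to bases 2 to 7 with a final A (7mer-A1), with overlapping matches counted once. In the longest annotated 3′UTR of each gene, 2 of the 9 genes held such letters, and 3927 of 14808 tested genes with a 3′UTR (26.5%) did. Dcx held 1 match and Draxin 3. These 4 stretches, all within 3′UTRs on the minus strand (GRCm39), are the only places where the genes have a 7mer or 8mer seed match in the longest 3′UTR, with the match in capitals.
Dcx, 7mer-m8, chrX:142643624-142643630: aagtgagagaaaAGCTCCTtttctc
Draxin, 8mer, chr4:148185997-148186004: cttctttccctcAGCTCCTAcacagg
Draxin, 7mer-A1, chr4:148185885-148185891: taacgttgctctGCTCCTAtgctta
Draxin, 7mer-A1, chr4:148183070-148183076: gacgccaggtggGCTCCTAggccca
The Dcx match lay 2917 bases after the stop codon in a 3′UTR of 7709 bases. Of 2398 tested genes whose 3′UTR was within 2-fold of that length, 51.7% held at least 1 match. The Draxin matches lay 923, 1036 and 3851 bases after the stop codon in a 3′UTR of 4033 bases. Of 6721 genes of like 3′UTR length 39.7% held a match, and 2.63% held 3 or more. The 3′UTR of Sox11 (6957 bases) held none, and those of Neurod1, Eomes, Neurog2, Top2a, Mki67 and Igfbpl1 were 305 to 2135 bases long and held none either. Matches to bases 2 to 7 alone (6mers) were not counted as matches. The longest 3′UTRs of Dcx and Sox11 held 2 of these each, and those of Draxin and Neurog2 held 1 each. A match describes letters only, and is not a measure of binding.

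**Figure D1:**
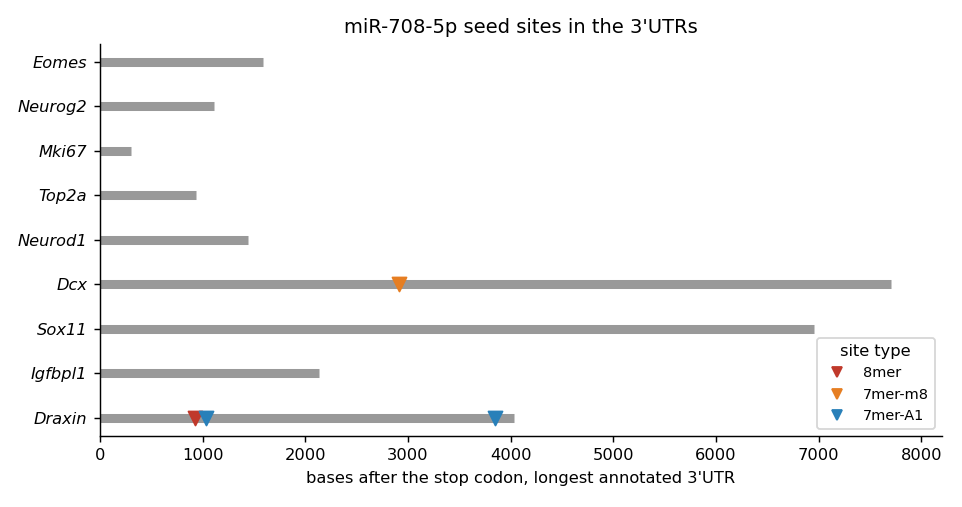
Seed matches of miR-708-5p along the longest annotated 3′UTR of each gene, with distance from the stop codon in bases on the x axis and 1 bar per gene drawn to scale. The 1 match of Dcx lies at 2917 of 7709 bases, the 3 of Draxin at 923, 1036 and 3851 of 4033 bases, and the other 7 genes have none.

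No difference between hp708 and hpCTL was detected for any of the 9 genes. With edgeR's quasi-likelihood test and 3 surrogate variables (estimated axes of hidden variation among libraries), 0 of 9 passed a false discovery rate (FDR) of 0.05, and neither the likelihood ratio test nor DESeq2 called any (DESeq2 gave no adjusted p for Eomes, Neurog2 and Draxin). Across all genes 1 of 17252 (0.0058%) was called. At an unadjusted p below 0.05, 0 of 9 passed, where 7.7% of all tested genes did (2.82% higher and 4.87% lower in hp708). In CPM (counts scaled to a common library size with TMM factors) the groups overlapped for each of the 9 genes, while they did not overlap for 1.51% of all tested genes (0.701% higher and 0.812% lower in hp708). The log2 fold change was below 0 for 3 of 9 genes, Sox11, Mki67 and Top2a, as it was for 53.2% of all tested genes. The median log2 fold change was 0.06 over the 9 genes and -0.01 over all tested genes. Without hp708 replicate 1, again 0 of 9 genes passed the FDR or an unadjusted p below 0.05, where 12.2% of 17425 tested genes met that p (5.44% higher and 6.72% lower), and the median of the 9 was 0.14. The value for Neurog2 was then -0.01, for Eomes 0.48, for Neurod1 -0.13, for Igfbpl1 0.95 and for Draxin 0.50.

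**Figure D2:**
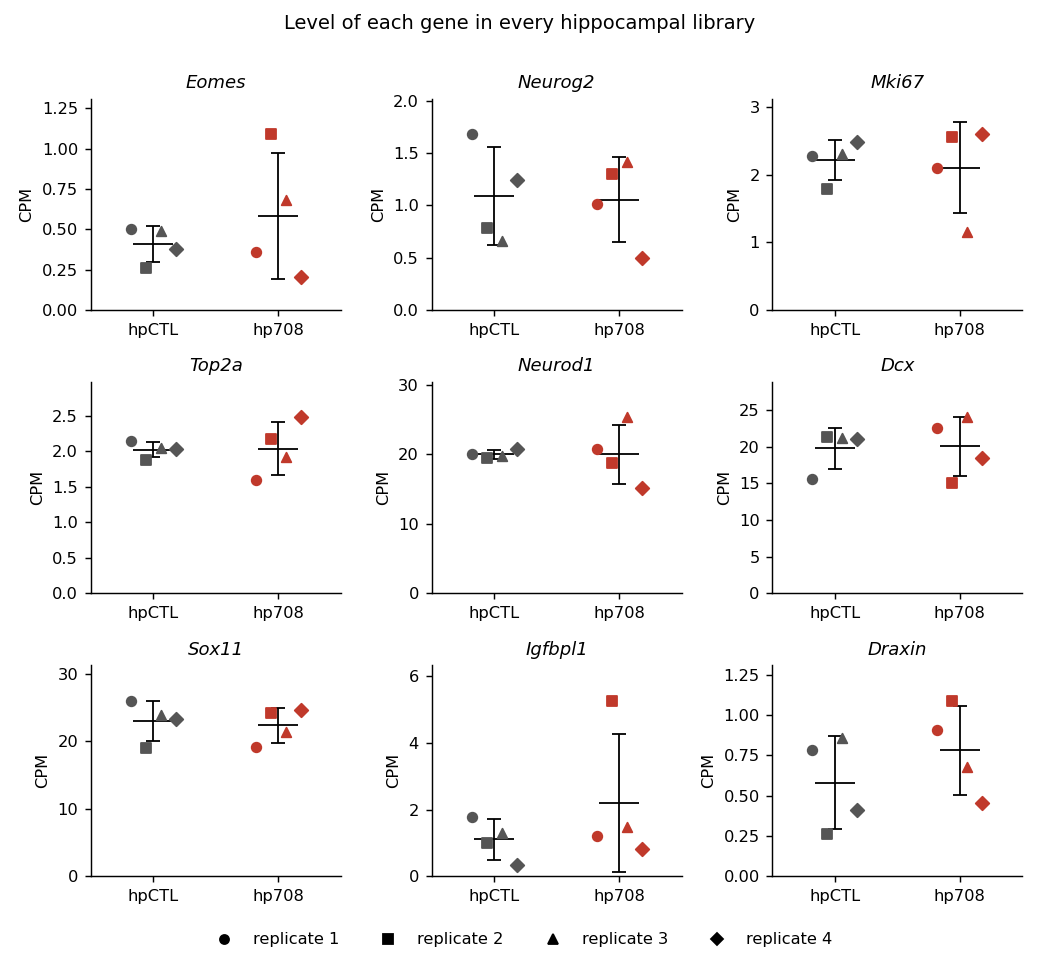
CPM of the 9 genes in each of the 8 libraries, with hpCTL and hp708 side by side, 1 point per library and the group mean as a line with its SD. The 2 groups overlap in every panel, and the highest Igfbpl1 value (5.26 CPM, hp708 replicate 2) stands far above the other 7.

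Of the pair of intermediate progenitor genes among the 9, Eomes (ENSMUSG00000032446, chr9:118307280-118315200 on the plus strand of GRCm39) was the more weakly expressed, with 5 to 25 counts per library. It measured 0.499, 0.262, 0.492 and 0.375 CPM in hpCTL replicates 1 to 4, and 0.362, 1.09, 0.681 and 0.206 CPM in hp708 replicates 1 to 4. The highest and the lowest library were both hp708. The log2 fold change was 0.34 (SE 0.51, 95% interval -0.87 to 1.55; FDR = 0.916, edgeR), so that the fold lay between 0.546 and 2.92. Without hp708 replicate 2, the highest library, the log2 fold change was -0.20. Of the Eomes exons, 10.3% are shared with Gm33460 on the opposite strand, which had 0 counts in every library.

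Neurog2 (ENSMUSG00000027967, chr3:127426448-127429280, plus strand), which specifies the glutamatergic fate of these progenitors, measured 1.68, 0.786, 0.656 and 1.24 CPM in hpCTL and 1.01, 1.3, 1.41 and 0.495 CPM in hp708. The hpCTL libraries reached from 0.656 to 1.68 CPM and held all but the lowest hp708 library. For Neurog2 the log2 fold change was 0.14 (SE 0.35, interval -0.69 to 0.97; FDR = 0.947), and it was -0.06 without surrogate variables. The fold for Neurog2 lay between 0.621 and 1.96, so that for both progenitor genes a rise of more than 1.9-fold lay within the 95% interval. In the list of 10 intermediate progenitor genes, 8 were tested, 4 were higher and 4 lower, and none had an unadjusted p below 0.05. When hp708 replicate 1 was left out, 2 were lower at that p, Btg2 (-0.24) among them, beside 6.72% of all genes. The most abundant of the list, the neuronal RNA-binding protein gene Elavl2, measured 71.7 ± 4.49 CPM in hpCTL and 69.8 ± 9.09 CPM in hp708 (SD, n = 4 each; log2 fold change 0.02, FDR = 0.973). Btg2, an antiproliferative gene, had the lowest p of that list and measured 23.8 ± 3.04 and 20.9 ± 3.53 CPM (log2 fold change -0.22, FDR = 0.723).

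Of the division genes, Mki67 (ENSMUSG00000031004, chr7:135291513-135318299, minus strand) measured 2.28, 1.79, 2.3 and 2.48 CPM in hpCTL and 2.1, 2.56, 1.15 and 2.6 CPM in hp708. Only hp708 replicate 3 lay below the hpCTL libraries, and the 2 highest libraries were hp708. The test gave a log2 fold change of -0.18 (SE 0.27, interval -0.82 to 0.45; FDR = 0.912), or 0.07 without hp708 replicate 1. Top2a (ENSMUSG00000020914, chr11:98883769-98915062, minus strand) measured 2.14, 1.88, 2.05 and 2.03 CPM in hpCTL and 1.59, 2.17, 1.92 and 2.48 CPM in hp708. Both the lowest and the highest value were again in hp708. Its log2 fold change was -0.08 (SE 0.18, interval -0.50 to 0.33; FDR = 0.942), which bounds the fold to 0.709 to 1.26. Without hp708 replicate 1, its lowest library, the value was 0.19.

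The wider list of 32 division genes gave the same count of calls. Of 28 tested, 8 were higher and 20 lower in hp708, beside 53.2% lower over all tested genes. Their median log2 fold change was -0.09. Without surrogate variables the median was -0.03. Without hp708 replicate 1 it was 0.07 over 30 tested genes. Of these 1, the survivin gene Birc5, had an unadjusted p below 0.05 (-0.88, against -0.21 with all libraries), beside 5.44% higher and 6.72% lower over all genes in that test. None was called. Only Cenpf, a centromere protein gene, had an unadjusted p below 0.05 with all libraries (log2 fold change 0.63, SE 0.26, FDR = 0.645). Over all tested genes 2.82% were higher and 4.87% lower at that p. Cenpf was higher in hpCTL replicate 1 (1.36 CPM) than in the other hpCTL libraries (0.675 to 0.699 CPM). Ccna2 (cyclin A2) and Cenpe (a centromere motor) were the 2 tested genes whose groups did not overlap, both lower in hp708 and both singled out after their values were seen (background for lower, 0.812%). The abundant members Ccnd2 (cyclin D2, which granule cell progenitors use) and Pcna (the DNA replication clamp) had log2 fold changes of 0.03 (FDR = 0.965) and -0.10 (FDR = 0.855). Ccnb1, Bub1, Aurkb and Ube2c did not pass the filter on low counts.

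Dcx (ENSMUSG00000031285, chrX:142638838-142716307, minus strand), the standard marker of adult-born immature neurons, measured 15.6, 21.3, 21.2 and 21.1 CPM in hpCTL and 22.6, 15.1, 24 and 18.5 CPM in hp708. Replicates 2 to 4 of hpCTL lay between 21.1 and 21.3 CPM with replicate 1 well below them, while the hp708 libraries lay on both sides. The log2 fold change was 0.06 (SE 0.09, interval -0.16 to 0.28; FDR = 0.917), the narrowest interval of the 9 genes, with a fold between 0.897 and 1.21. Leaving out hp708 replicate 1 moved the Dcx value to -0.20, outside the interval from all libraries. Its FDR was then 0.528, the lowest FDR of any of the 9 genes under 23 alternative settings.

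The Dcx level was set beside the levels of other long transcripts. The exons of Dcx cover 12647 bases, against a median of 6180 for the tested protein-coding genes. For each library the median log2 deviation of the 1499 shortest genes (at most 2505 bases of exon) was subtracted from that of the 1498 longest (at least 12691 bases), a measure added after the values were seen. The hpCTL libraries gave differences of -0.38, 0.03, 0.08 and 0.02, and the hp708 libraries 0.12, -0.20, 0.22 and 0.07. The log2 deviation of Dcx in the same libraries was -0.33, 0.11, 0.11 and 0.10, then 0.20, -0.38, 0.29 and -0.09. Both were lowest in hpCTL replicate 1 and hp708 replicate 2 and highest in hp708 replicate 3. Mki67 and Sox11, with 10270 and 8311 bases of exon, did not follow this order, with a Mki67 deviation of -0.83 in hp708 replicate 3 and a Sox11 deviation of 0.21 in hpCTL replicate 1. The part of transcript length in the Dcx values was not tested. The 5 genes whose levels over the 8 libraries were most like Dcx, Clasp1, Csmd1, Bltp1, Hectd4 and Kcnma1, each had a Pearson r of 0.99 with it and exons of 16846 to 32771 bases.

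Sox11 (ENSMUSG00000063632, chr12:27384263-27392573, minus strand) measured 26, 19, 23.8 and 23.3 CPM in hpCTL and 19.2, 24.2, 21.3 and 24.6 CPM in hp708. The highest and the lowest library were both hpCTL. Sox11 had a log2 fold change of -0.08 (SE 0.11, interval -0.33 to 0.17; FDR = 0.892), with a fold between 0.793 and 1.12, and it was 0.14 without hp708 replicate 1. Neurod1 (ENSMUSG00000034701, chr2:79282865-79287294, minus strand) measured 20, 19.4, 19.7 and 20.8 CPM in hpCTL and 20.7, 18.8, 25.3 and 15.1 CPM in hp708. The hpCTL libraries had an SD of 0.622 CPM and the hp708 libraries one of 4.23 CPM around the same mean of 20 CPM. The log2 fold change was 0.06 (SE 0.14, interval -0.28 to 0.39; FDR = 0.949). Neurod1 shares 6.71% of its exons with Cerkl on the same strand, which had 78 to 145 counts per library against 365 to 593 for Neurod1.

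Igfbpl1 (ENSMUSG00000035551, chr4:45809254-45826923, minus strand) had the largest log2 fold change of the 9 genes, 0.62 (SE 0.43, interval -0.39 to 1.63, FDR = 0.782), and it depended on single libraries. It measured 1.78, 1, 1.31 and 0.338 CPM in hpCTL and 1.2, 5.26, 1.49 and 0.825 CPM in hp708. Apart from hp708 replicate 2, every hp708 library lay within the hpCTL range. Without that library the log2 fold change was 0.07 (FDR = 0.963). It was 0.27 without hpCTL replicate 4, the lowest library, and 1.02 without hpCTL replicate 3. The counts ran from 9 to 121 per library.

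Draxin (ENSMUSG00000029005, chr4:148182894-148215155, minus strand), the gene with 3 seed matches, measured 0.785, 0.262, 0.861 and 0.413 CPM in hpCTL and 0.905, 1.09, 0.681 and 0.454 CPM in hp708. The groups overlapped, and the 2 highest libraries were hp708. For Draxin the log2 fold change was 0.46 (SE 0.45, interval -0.59 to 1.52; FDR = 0.856). Without hpCTL replicate 3 it was 1.14 with an unadjusted p of 0.0268 (FDR = 1), the single case of an unadjusted p below 0.05 among the 9 genes and 23 settings. Neither Draxin nor Dcx, the 2 genes with a seed match, was lower in hp708 in the test with all 8 libraries.

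**Figure D3:**
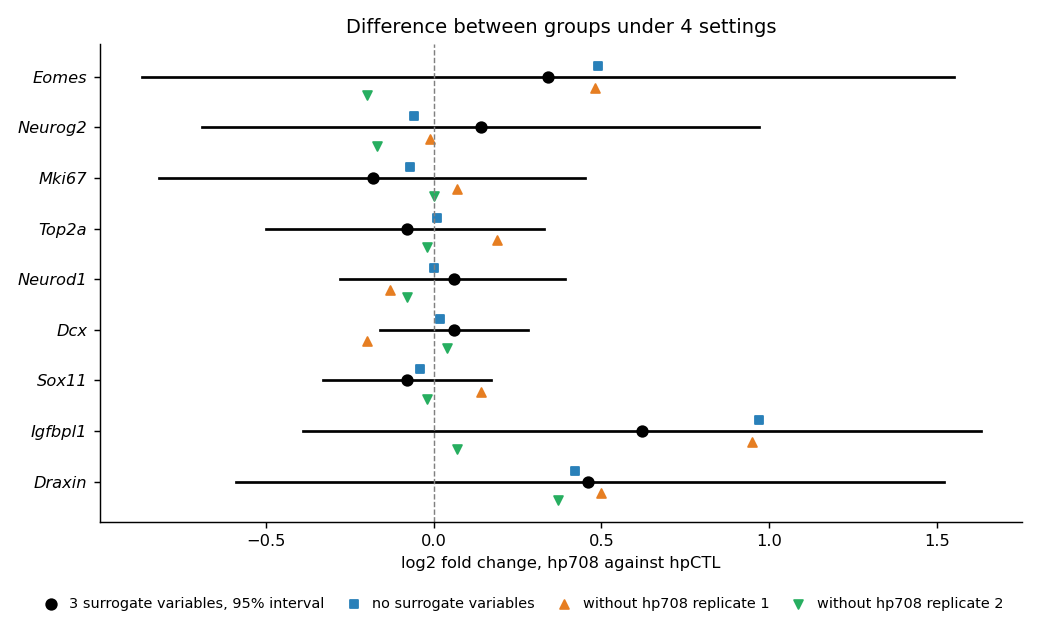
Log2 fold change of hp708 against hpCTL (x axis) for the 9 genes, with the value and 95% interval from all 8 libraries and 3 surrogate variables (black) and 3 alternatives without intervals. Every interval includes 0, and that of Dcx (-0.16 to 0.28) is the narrowest. The Dcx value obtained after hp708 replicate 1 is left out (-0.20) lies outside it. Without hp708 replicate 2 the Igfbpl1 value falls from 0.62 to 0.07.

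Levels per kilobase of exon (RPKM, TMM-scaled) were highest for Neurod1, Sox11 and Dcx. The mean over the 8 libraries was 6.57 for Neurod1 (4.96 to 8.31), 2.73 for Sox11 (2.28 to 3.13) and 1.58 for Dcx (1.19 to 1.9), and the ranges of these 3 did not overlap. Igfbpl1 followed with 0.476 and overlapped with Dcx through its highest library, and it was above Neurog2 in only 3 of 8 libraries. Neurog2 (0.418), Top2a (0.223), Mki67 (0.21), Draxin (0.131) and Eomes (0.119) overlapped with their neighbours in the order. Mki67 and Top2a thus had like levels per length, and Eomes and Draxin were lowest.

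The spread between mice differed among the genes. Within groups the coefficient of variation of CPM was 12.2% for Sox11, 15.2% for Neurod1 and 17.4% for Dcx, where counting error alone gave 4.24% to 4.55%. For Top2a it was 13.5%, against 14.1% from counting error, so that this measure showed no spread between mice beyond counting. The biological coefficient of variation that edgeR estimated for Top2a was 19.3%, against a median of 26.1% for genes of like level. For Eomes, Neurog2, Draxin and Mki67 it was 50.9%, 40.7%, 43% and 24.6%, with 32.1%, 21%, 27% and 14.1% from counting error. Igfbpl1 had the widest spread, 76.9% against 20.1%. Its biological coefficient of variation of 60.2% exceeded that of 96.8% of 2516 genes of like level, whose median was 27.3%.

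The 9 genes did not move together across mice. Library hp708 replicate 2 was highest for Eomes, Igfbpl1 and Draxin and lowest for Dcx. Library hp708 replicate 4 was highest for Mki67 and Top2a and lowest for Eomes, Neurod1 and Neurog2. Library hp708 replicate 3 was highest for Dcx and Neurod1 and lowest for Mki67. Over 36 pairs of genes the median Pearson r of log2 CPM was 0.10 (n = 8 libraries that differ in depth and in the long-transcript measure), from -0.75 for Neurod1 with Mki67 to 0.82 for Sox11 with Top2a.

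**Figure D4:**
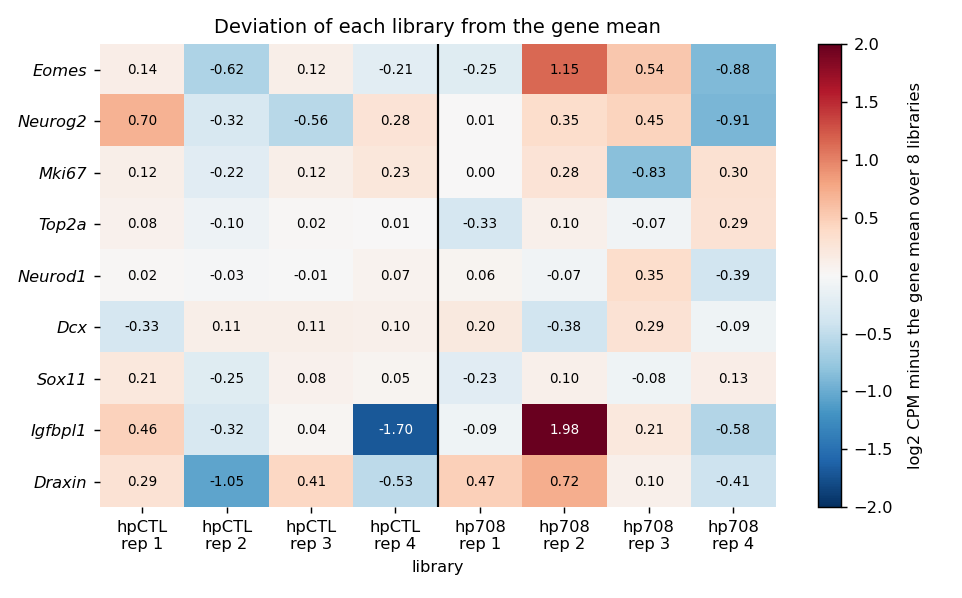
Deviation of log2 CPM from the mean over the 8 libraries for each gene (rows) in each library (columns), with red above and blue below the mean. The genes do not share one pattern: hp708 replicate 2 is 1.98 above the mean for Igfbpl1 and 0.38 below it for Dcx.

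Correlations with a test were computed for 3 pairs, with values of Benjamini-Hochberg adjustment over the 3. Within groups of 4 libraries no value was computed, since a correlation needs at least 6. Mki67 and Top2a, both made by dividing cells, had r = 0.45 (exact permutation p = 0.261, adjusted 0.261) and Spearman's rho = 0.81 (exact permutation p = 0.0218, adjusted 0.0327). Without hp708 replicate 3 and hpCTL replicate 2, the libraries farthest from the Mki67 median, r was 0.85. Dcx and Sox11, both of immature neurons, had r = -0.70 (exact permutation p = 0.0557, adjusted 0.167) and rho = -0.81 (exact permutation p = 0.0218, adjusted 0.0327). Dcx had its lowest and highest libraries in common with the long-transcript measure, and the part of that measure in these values was not tested. Without hp708 replicate 2 and hpCTL replicate 1, in which Dcx was lowest, r was -0.59. Dcx and Igfbpl1 had r = -0.57 (exact permutation p = 0.145, adjusted 0.218) and rho = -0.26 (exact permutation p = 0.536, adjusted 0.536), and r was 0.42 without those 2 libraries, on which the negative value rests.

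The genes most like Mki67 over the 8 libraries were Pid1 (r = 0.98), Dap (r = 0.97), Nsrp1, S100a10 and Lgals1 (r = 0.96 each). Lgals1, the galectin-1 gene, measured 9.8 CPM in hp708 replicate 3, where Mki67 was lowest, and 16.8 to 23.1 CPM in the other libraries. Those most like Igfbpl1, a search added after its values were seen, were Psmc3ip, Dynlt4 and A230009B12Rik (r = 0.95), 6530411M01Rik (r = 0.94) and C130013H08Rik (r = 0.92). Dynlt4, a dynein light chain gene, measured 1.87 CPM in hp708 replicate 2 and 0.413 to 0.905 CPM elsewhere.

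Further lists followed the lineage on either side of these genes, and no list held a gene called at an FDR of 0.05 with the quasi-likelihood test on all libraries. The lists are not separate from the 9 genes or from each other. The intermediate progenitor, division and neuroblast lists together hold all 9, and some other genes stand in several lists. Of 16 genes of radial glia-like stem cells, 15 were tested, 8 higher and 7 lower (median log2 fold change 0.01), and none had an unadjusted p below 0.05. With hp708 replicate 1 left out, 3 were higher and 3 lower at that p, beside 5.44% and 6.72% of all genes. Hopx, a marker of quiescent stem cells, came nearest with all libraries (0.18, FDR = 0.656). Gfap, the intermediate filament gene of astrocytes and stem cells, measured 637 ± 76.4 CPM in hpCTL and 816 ± 319 CPM in hp708 (SD, n = 4 each; FDR = 0.885), and hp708 replicate 4 was highest at 1249 CPM. Its log2 fold change was 0.20, and it was 0.49 (FDR = 0.143) without hp708 replicate 1 and -0.03 without hp708 replicate 4. Aldoc, an astrocyte enzyme gene, had a log2 fold change of -0.07 (FDR = 0.788).

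Of 20 genes of neuroblasts and immature neurons, all were tested, 7 higher and 13 lower (median -0.08). An unadjusted p below 0.05 was met by 3, all lower in hp708, against 4.87% of all tested genes. They were Stmn1, a microtubule destabiliser (-0.32, SE 0.09; FDR = 0.511), Tubb3, a neuronal tubulin (-0.16, SE 0.06; FDR = 0.601), and Dpysl3, a growth cone protein (-0.14, SE 0.05; FDR = 0.612). None passed the FDR, and for all 3 the groups overlapped. Stmn1 measured 110, 92.1, 77.9 and 77.3 CPM in hpCTL and 87.2, 68.6, 61.9 and 49.4 CPM in hp708. Without hp708 replicate 1, its highest hp708 library, Stmn1 was called (log2 fold change -0.54, FDR = 0.0276), and 6 genes of the list were lower and 1 higher at an unadjusted p below 0.05, beside 6.72% lower and 5.44% higher over all genes in that test. With hp708 replicate 4, its lowest library, left out instead, Stmn1 was at -0.20 (unadjusted p = 0.131). Stmn1, Tubb3 and Dpysl3 are also expressed by mature neurons. The cell adhesion gene Ncam1 had a log2 fold change of 0.03 (FDR = 0.93).

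Of 10 genes of mature granule cells, 7 were higher and 3 lower (median 0.14), and Pdzd2, a PDZ domain gene, had the lowest p (log2 fold change 0.27, SE 0.05, unadjusted p = 0.000911; FDR = 0.297). Without surrogate variables none of the 10 met an unadjusted p below 0.05. Without hp708 replicate 1 the median was 0.24, with 4 genes higher and 2 lower at that p, beside 5.44% higher and 6.72% lower over all genes in that test, and none passed the FDR (Pdzd2 0.34, FDR = 0.0677). Without hp708 replicate 4, its highest library, Pdzd2 was at 0.13 with an unadjusted p of 0.0955. Pdzd2 measured 27.9, 46.7, 52.3 and 46.5 CPM in hpCTL and 46.9, 44.8, 57.5 and 74.6 CPM in hp708. The groups overlapped. The summed level of the list was 450 to 561 CPM in hpCTL and 446 to 683 CPM in hp708. It was highest in hp708 replicate 3, the library with the highest Neurod1, which mature granule cells also express. In hp708 replicate 4, with the lowest Neurod1, it was 499 CPM, above the 446 CPM of hp708 replicate 1 and the 450 CPM of hpCTL replicate 4. The share of dissected granule cells in the Neurod1 values was not tested. Calb1, the calbindin gene of mature granule cells, and Stxbp6 had log2 fold changes of -0.11 (FDR = 0.942) and 0.04 (FDR = 0.97), and Calb1 had -0.45 (FDR = 0.284) without hp708 replicate 1 and 0.03 without hp708 replicate 4, its lowest library.

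Of 23 genes of the niche and its signals, 14 were higher and 9 lower (median 0.03). An unadjusted p below 0.05, which 2.82% of all tested genes met as higher and 4.87% as lower, was met by Notch1, the receptor that maintains stem cells (0.13, FDR = 0.594), Id1, a target of bone morphogenetic protein signals (0.25, FDR = 0.613), and Wnt7b, a Wnt ligand (-0.14, FDR = 0.646). Without surrogate variables none of the list did, and without hp708 replicate 1, 3 were higher and 4 lower at that p (median -0.09), beside 5.44% and 6.72% of all genes. Dkk3 and Vegfa, a secreted glycoprotein and the vascular growth factor, had log2 fold changes of 0.01 (FDR = 0.984) and 0.03 (FDR = 0.961).

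**Figure D5:**
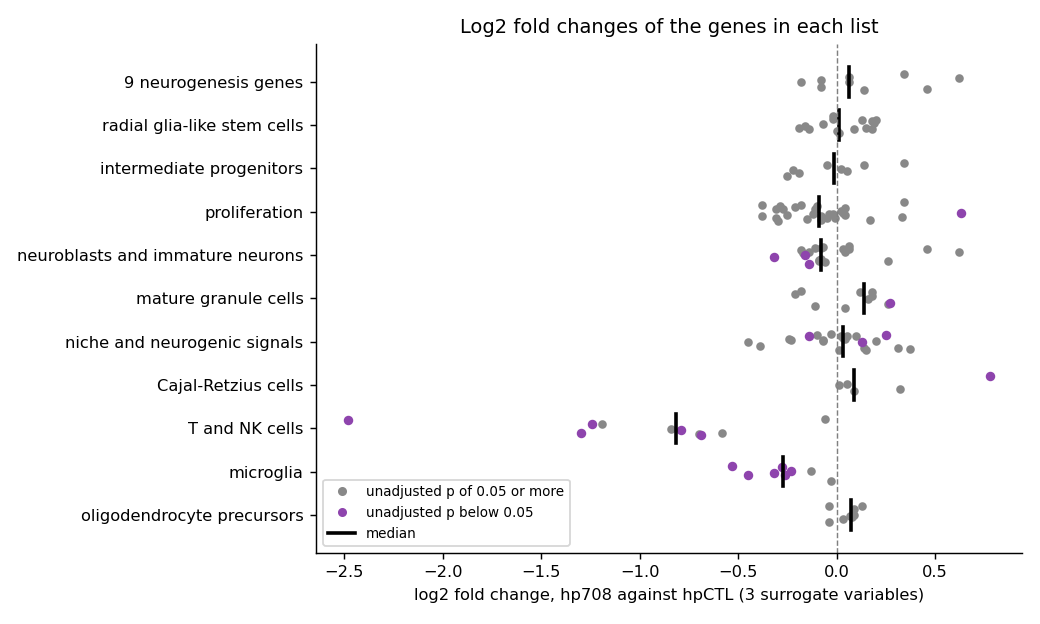
Log2 fold change of hp708 against hpCTL for every tested gene of each list (1 point per gene, x axis), with the list's median as a bar. The medians of the neurogenic lists lie between -0.09 and 0.14, and those of microglia (-0.27) and of T and NK cells (-0.82) lie lowest.

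Markers of other cell types were read in the same libraries. All 5 tested genes of 7 for Cajal-Retzius cells, which also express markers of young neurons, were higher (median 0.09), while 53.2% of all tested genes were below 0. After hp708 replicate 1 was left out, 2 of them, Ebf3 and Trp73, were higher at an unadjusted p below 0.05, beside 5.44% of all genes. Ebf3 had the lowest p (log2 fold change 0.78, FDR = 0.511), and Cxcl14 and Reln had 0.01 (FDR = 0.977) and 0.05 (FDR = 0.838). All 8 microglial genes were lower (median -0.27), 6 of them at an unadjusted p below 0.05, beside 53.2% below 0 and 4.87% lower at that p over all tested genes, with C1qa at -0.53 (FDR = 0.456) and Csf1r at -0.23 (FDR = 0.511). All 10 tested genes of 12 for T and NK cells were lower (median -0.82). An unadjusted p below 0.05 was met by 5 of them, against the same 4.87% of all tested genes, Gzmb (-2.48, FDR = 0.386), Cd8a (-1.30), Tbx21 (-1.24), Cd3d (-0.79) and Cd3e (-0.69). Cd3g and Trbc2 had -0.70 (FDR = 0.686) and -0.58 (FDR = 0.712). Gzmb lay near the floor, with a mean of 0.793 CPM in hpCTL and 0.349 CPM in hp708. It measured 0.0724 CPM in hp708 replicate 1 and 0.0852 CPM in hp708 replicate 3. Without surrogate variables or without hp708 replicate 1, no gene of the microglial or T and NK cell list met an unadjusted p below 0.05, and Gzmb was at -1.18 in both. The median of the T and NK cell list was then -0.30 and -0.16, and that of the microglial list -0.12 and 0.04.

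The immune markers differed among the hp708 libraries. In hp708 replicates 1 to 4 the microglial genes summed to 555, 861, 618 and 932 CPM, against 672 to 898 CPM in hpCTL. The T and NK cell genes summed to 9.67, 22.6, 9.63 and 37.9 CPM there, against 12.1 to 34.4 CPM in hpCTL. Top2a was lowest in hp708 replicate 1 and Mki67 in hp708 replicate 3, the libraries with the lowest sums of both lists, and both were highest in hp708 replicate 4, where both sums were highest. In hpCTL, replicate 1 had the lowest sums of both lists (672 and 12.1 CPM) and the highest Top2a (2.14 CPM). The within-group spread of Top2a (13.5%) was not above that of counting error (14.1%). The part of dividing microglia or lymphocytes in the Mki67 and Top2a values was not tested. Of 8 genes of oligodendrocyte precursors, another dividing population of the adult brain, 6 were higher and 2 lower (median 0.07), with Cspg4 at 0.13 (FDR = 0.74), Gpr17 at 0.07 (FDR = 0.899) and Olig1 at -0.04 (FDR = 0.916). None had an unadjusted p below 0.05. Without hp708 replicate 1 only Sox10 did (0.21, against 0.03 with all libraries), beside 5.44% higher and 6.72% lower over all genes in that test. Their summed level was 279 to 317 CPM in hpCTL and 290 to 367 CPM in hp708.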

How the data were processed

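Poly(A) RNA of the hippocampus (TruSeq mRNA) was sequenced from 4 hpCTL and 4 hp708 mice, 1 library per mouse. Per the submitters' processing notes and the study's methods, the authors aligned reads with STAR 2.7.8a to GRCm39 and counted them per gene with featureCounts 1.6.4; the deposited values are raw counts per gene, not normalized. The strand setting and the treatment of reads that map to several places are not given in the sources used here, so antisense and overlapping genes cannot be told apart. Gene names, exon lengths and 3′UTRs came from the GENCODE annotation of GRCm39, a later release than the authors used, which named 39641 of 40659 identifiers, and the miRNA sequence from RefSeq.

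Counts were filtered with filterByExpr, scaled by TMM and tested with edgeR 4.0.16 (quasi-likelihood, R 4.3.3) with 3 surrogate variables from sva 3.50.0, and adjusted by Benjamini-Hochberg over all 17252 tested genes. CPM and RPKM used TMM-scaled library sizes, and log2 CPM a prior count of 2. The script was tested on simulated data. Alternatives were no surrogate variables, the likelihood ratio test, DESeq2 1.42.0, DESeq2 size factors, no filter, a replicate block, each library left out with and without surrogate variables, and, chosen after seeing the data, surrogate variables from TMM-scaled counts. The genes named were the 9 genes and, in each list, the 2 with the highest mean CPM and the one with the lowest unadjusted p, except where a gene is not reported here; others are said to be chosen after their values were seen, and Dpysl3, Id1, Wnt7b, Cd3e, Cd3d, Cd8a, Tbx21, Birc5, Trp73 and Sox10 were also. The 9 genes and all lists were chosen with earlier results of these data known. No 2 libraries agree within sampling noise (chi-square per degree of freedom of at least 10 within groups), and all counted as separate mice.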

Additional observations from a re-analysis of the deposited data

Results flagged for a closer look

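In each group of 4 libraries, a level was listed when its gap to the nearest other library, divided by the range of the group, exceeded Dixon's 95% critical value for groups of 4. Of 94 groups tested, 9 met this, where chance gives about 4.7. In hpCTL replicate 1, Dcx was at 15.6 CPM (21.1 to 21.3 in the other hpCTL libraries), Hopx at 72.4 CPM (47.8 to 50.5), Cenpf at 1.36 CPM (0.675 to 0.699), Notch1 at 31.6 CPM (45 to 46.4) and Cxcl14 at 81.9 CPM (61.1 to 63). In hp708 replicate 2, Igfbpl1 was at 5.26 CPM (0.825 to 1.49 in the other hp708 libraries), Reln at 41.6 CPM (69.2 to 73.4) and Olig1 at 117 CPM (82.1 to 87.4). In hp708 replicate 4, the mean log2 CPM of the neuroblast and immature neuron list was 4.45 (4.81 to 4.87).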

How the results depend on the processing

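The count of 0 of the 9 genes called at an FDR of 0.05 held under all 23 alternatives, in which the lowest FDR of any of the 9 ran from 0.528 to 1. The count of genes lower in hp708 went from 3 to 5 with a replicate block without surrogate variables, and from 1 (without hpCTL replicate 4) to 6 (without hp708 replicate 2 or 3) when 1 library was left out. With 1 library left out, 0 to 1 of the 9 had an unadjusted p below 0.05 (Draxin without hpCTL replicate 3), and 0 to 1 genes of the neuroblast list were called (Stmn1 without hp708 replicate 1). The likelihood ratio test called 1 gene each in the mature granule cell (Pdzd2, FDR = 0.0333), T and NK cell (Gzmb, FDR = 0.004) and microglial lists (C1qa, FDR = 0.033). Same-numbered libraries did not deviate together (r = 0.01, -0.02, -0.04 and 0.02). No pairing by number was detected, which does not exclude one. Genes called in all were 1 of 17252 in the test as reported, 0 without surrogate variables, 127 with the likelihood ratio test, 96 with DESeq2, 12 without a filter, 1 with the replicate block, 0 with surrogate variables from TMM-scaled counts and 56 without hp708 replicate 1. The causes were not tested.

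The log2 fold change changed sign for these genes. Without surrogate variables it was -0.00 for Neurod1, -0.06 for Neurog2, 0.01 for Top2a, -0.04 for Elavl2, -0.01 for Dkk3, -0.02 for Cxcl14 and 0.01 for Olig1. Without a filter it was -0.06 for Neurog2, -0.01 for Stxbp6 and -0.02 for Cxcl14 and Sox10. With the replicate block it was -0.02 for Neurod1, -0.06 for Neurog2, -0.05 for Elavl2, -0.01 for Dkk3 and Cxcl14 and -0.02 for Reln. With surrogate variables from TMM-scaled counts it was -0.02 for Neurod1, -0.08 for Neurog2, 0.01 for Top2a and -0.04 for Elavl2. With 1 library left out the value ran from -0.20 to 0.13 for Dcx, -0.19 to 0.14 for Sox11, -0.22 to 0.59 for Eomes, -0.15 to 0.14 for Neurod1, -0.32 to 0.35 for Neurog2, -0.31 to 0.09 for Mki67, -0.16 to 0.19 for Top2a, -0.03 to 0.50 for Gfap, -0.10 to 0.06 for Elavl2, -0.13 to 0.05 for Ccnd2, -0.13 to 0.03 for Pcna, -0.07 to 0.07 for Ncam1, -0.13 to 0.17 for Stxbp6, -0.51 to 0.03 for Calb1, -0.02 to 0.09 for Dkk3, -0.07 to 0.09 for Vegfa, -0.03 to 0.10 for Cxcl14, -0.16 to 0.14 for Reln, -0.77 to 0.07 for C1qa, -0.14 to 0.15 for Olig1, -0.01 to 0.21 for Sox10, -0.88 to 0.12 for Birc5 and -1.14 to 0.07 for Cd3e. In the same fits made without surrogate variables, the range was -0.08 to 0.13 for Dcx, -0.13 to 0.02 for Sox11, -0.13 to 0.11 for Neurod1, -0.24 to 0.23 for Neurog2, -0.19 to 0.13 for Mki67, -0.10 to 0.12 for Top2a, -0.12 to 0.02 for Elavl2, -0.06 to 0.08 for Ccnd2, -0.03 to 0.06 for Ncam1, -0.06 to 0.14 for Stxbp6, -0.07 to 0.04 for Dkk3, -0.04 to 0.11 for Vegfa, -0.06 to 0.10 for Cxcl14, -0.06 to 0.17 for Reln, -0.84 to 0.04 for Cd3g, -0.58 to 0.14 for Trbc2, -0.40 to 0.06 for C1qa, -0.13 to 0.08 for Olig1, -0.04 to 0.21 for Sox10 and -0.59 to 0.18 for Cd3e. In those fits Neurog2 was at -0.18 without hpCTL replicate 2 and at -0.17 without hp708 replicate 2. Igfbpl1 (0.07 to 1.31) and Draxin (0.15 to 1.14) kept their direction. Counts were 5 to 25 for Eomes and 6 to 25 for Draxin, and both the spread between mice and counting error limit the differences that can be detected.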
